A study of Mus musculus with 15 samples.

Results

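The collagen gene family was followed by poly(A) RNA sequencing through embryonic mouse pancreata and pancreatic explants. All 44 genes of the count table whose GENCODE M21 symbol has the form Col, a type number, a and a chain number were taken as members, out of 25292 genes in the table. The rule used the symbols only and no measured value, but it was set with earlier results of these data known. Of the 44 genes, 41 carried enough reads to be tested, and Col4a3, Col4a4 and Col10a1 did not.

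Collagens are trimers of chains that wind around each other into a rod. A chain can wind only where a glycine returns at every step of a repeat written Gly-X-Y, because no larger side chain fits inside the rod. Fibrillar collagens form the cables of connective tissue, type IV collagens the sheet of basement membranes and type VI collagens beaded microfilaments, while the FACIT collagens (fibril-associated collagens with interrupted helices) sit on the surface of fibrils. In the embryonic pancreas the mesenchyme produces much of the interstitial matrix, and a basement membrane lies between the epithelium and the surrounding mesenchyme and vessels.

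The data comprised 15 libraries in 5 groups of 3, all on the C57/Bl6J background by their labels. Pancreata at 14.5 dpc (days post coitum) were wild type (wt) or labelled S1pr2 null, which per the methods of the study carry the S1pr2 tm1Rlp allele, a Neo cassette placed in exon 1 of the gene for the sphingosine-1-phosphate receptor 2. Explants of 14.5 dpc pancreata, dorsal buds per the methods, were cultured for 2 days on filters at an air-liquid interface in serum-free medium. They were left in standard medium (control explants), treated with 15 µM JTE013, an S1pr2 antagonist (JTE), or treated with 15 µM JTE013 and 50 ng/ml connective tissue growth factor (JTE with CTGF). Each library could pool up to 3 pancreata or explants, so that the spread between libraries is a spread between pools. Fresh and cultured samples differ in stage, in the part of the organ taken and in culture, and these cannot be told apart in any comparison between them.

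S1pr2 itself was counted at 858, 796 and 812 normalised reads in wt and at 1486, 1368 and 1609 in the libraries labelled S1pr2 null. The receptor transcript was therefore higher, not lower, in the latter. The deposited count covers the whole gene and does not show where in the gene the reads lie, so that it is no test of the loss of the protein. These libraries are called null-labelled here, and each direction below rests on the label. The total count ranged from 11402804 to 13828737 reads per library, and the biological coefficient of variation was 7.3%. Collagen genes took between 1.36 and 1.95% of the reads of a library. The third JTE library had the highest share of collagen reads, and results that rest on it are marked below. In bulk RNA a lower count from fewer cells of a type and one from less RNA per cell cannot be told apart.

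The repeat that defines the family can be read from the coding sequences of the GENCODE M21 transcripts. Runs of at least 5 glycine codons (GGN), each separated by 2 other codons, were located in the coding sequence of each gene. The stretches shown next are 30 codons each and were chosen to show how classes differ. Col1a1 (chr11:94936224-94953042, plus strand) and Col2a1 (chr15:97975602-98004695, minus strand) stand for the unbroken fibrillar rod. Col4a1 (chr8:11198423-11312826, minus strand) and Col9a1 (chr1:24177610-24252684, plus strand) are shown where a run is interrupted. Col5a3 (chr9:20770050-20815067, minus strand) and Col6a6 (chr9:105689417-105828085, minus strand) are shown for 2 minor chains with large differences between groups. The sequences run 5′ to 3′ on the coding strand, the coordinates give the gene in mm10, and capitals mark the glycine codons that belong to a run.
Col1a1: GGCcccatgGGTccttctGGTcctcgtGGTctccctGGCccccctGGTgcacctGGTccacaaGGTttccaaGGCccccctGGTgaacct
Col2a1: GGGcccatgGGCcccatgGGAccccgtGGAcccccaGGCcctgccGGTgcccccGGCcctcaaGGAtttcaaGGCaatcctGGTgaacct
Col4a1: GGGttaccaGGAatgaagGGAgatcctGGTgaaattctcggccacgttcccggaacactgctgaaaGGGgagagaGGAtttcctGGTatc
Col9a1: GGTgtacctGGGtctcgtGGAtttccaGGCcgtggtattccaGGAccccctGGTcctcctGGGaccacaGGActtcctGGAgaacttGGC
Col5a3: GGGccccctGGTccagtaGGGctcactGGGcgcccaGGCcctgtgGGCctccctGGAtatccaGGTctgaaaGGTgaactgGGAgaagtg
Col6a6: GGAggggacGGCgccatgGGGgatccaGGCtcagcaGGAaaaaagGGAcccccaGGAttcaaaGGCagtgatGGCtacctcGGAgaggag

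In the stretches of Col1a1, Col2a1, Col5a3 and Col6a6 a glycine codon stood at every step, from codons 168, 201, 478 and 1391 of the respective coding sequences. The Col4a1 stretch (codons 151 to 180) and the Col9a1 stretch (codons 347 to 376) each held a gap between runs. Over the family, the longest unbroken run had 216 to 344 triplets in the 11 fibrillar genes (median 338). It had 39 to 66 triplets in the 6 type IV genes, where each chain was broken into 22 to 27 runs. The longest run ranged from 32 to 113 triplets in FACIT collagens, from 37 to 87 in type VI and from 40 to 55 in the transmembrane collagens. Col5a3 shared the fibrillar plan with a run of 337 triplets, whereas 14.2% of the codons of Col6a6 lay in runs. Glycine codons made up 9.1% (Col6a3) to 31.2% (Col9a3) of the codons of a gene. Despite the repeat, at most 4.87% of the 50-base words of a member (Col9a3) occurred in another gene, and 7 members were over 1%.

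**Figure D1:**
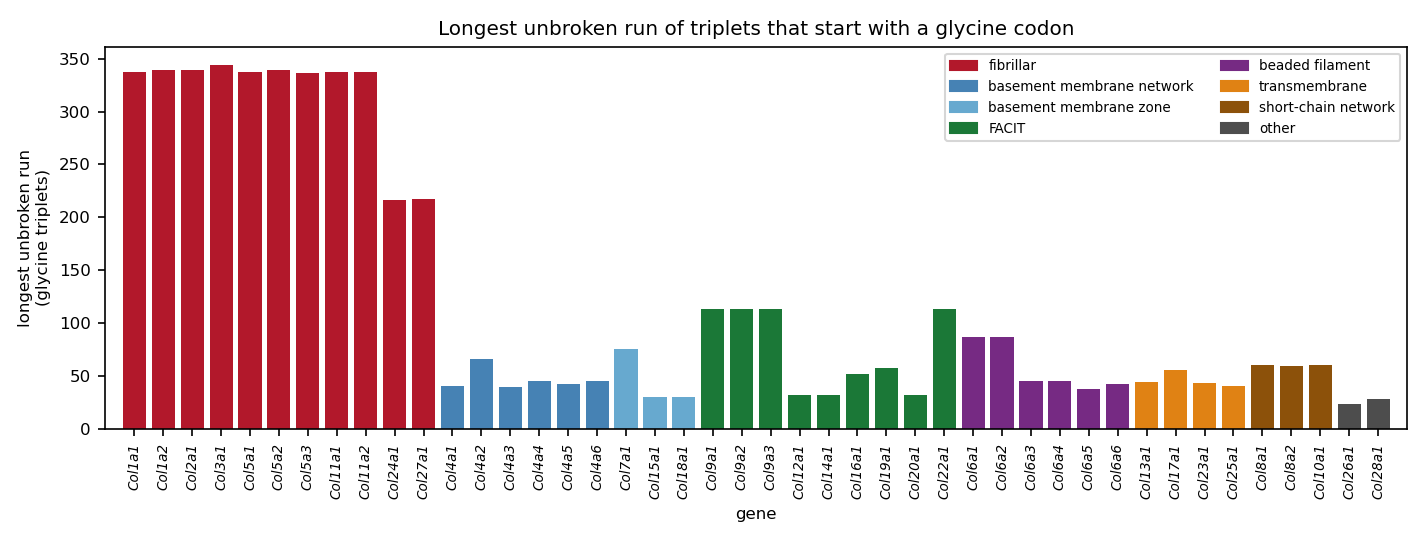
Longest unbroken run of triplets that start with a glycine codon (y axis, number of triplets) for each of the 44 collagen genes (x axis), coloured by class. The fibrillar genes reach 216 to 344 triplets, and no gene of another class exceeds 113.

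Levels per length are given as FPKM (reads per kilobase of merged exons, scaled to library size), computed from the counts. In wt pancreata Col1a1 (494 ± 17.9 FPKM, SD, n = 3) and Col3a1 (482 ± 7.37), the main chains of fibrils in soft connective tissue, were highest and did not differ beyond their spread. Next came Col1a2 (209 ± 3.22), the partner chain of Col1a1 in type I collagen, and Col6a1 (121 ± 4.98). They were followed by Col4a1 (106 ± 3.94), Col18a1 (90.7 ± 2.08), whose protein holds the endostatin fragment, Col6a2 (76.1 ± 4.82) and Col5a1 (75.7 ± 1.24), the last of these within the spread of Col6a2. Col1a1 and Col3a1 made up 23.8 and 23.2% of the summed collagen FPKM in wt. The highest chains of the other classes were Col9a2 among FACIT collagens (43.5 ± 1.42), Col23a1 among transmembrane collagens (17.4 ± 2.05), Col8a2 in the short-chain network (12.4 ± 0.541) and Col26a1 in the remainder (19.7 ± 2.2).

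The order depends on the length used. The exons of all Col1a2 transcripts merge to 12136 bases while its longest coding transcript has 5348, and by transcript length Col3a1 stood above Col1a1 in wt. At the low end, Col10a1, a chain of hypertrophic cartilage, had 1 read in 1 of the 15 libraries. Col4a3 and Col4a4, chains of the mature glomerular basement membrane, had at most 7 and 9 reads in any library.

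A gene was called when its adjusted p in edgeR's quasi-likelihood test, by Benjamini-Hochberg over 16245 genes, was below 0.05. Between null-labelled and wt pancreata 12 of the 41 tested collagen genes were higher and 12 lower, against 25.8% of all genes tested that were called in that comparison (12.6% higher and 13.3% lower). In JTE explants 9 were higher and 21 lower than in control explants, where 52.2% of all genes were called (25.9% higher and 26.2% lower). With JTE and CTGF 7 were higher and 22 lower than in control explants, where 61.1% of all genes were called (28.1% higher and 33.0% lower). Between JTE with CTGF and JTE alone 4 were higher and 10 lower, against 30.4% of all genes (13.6% higher and 16.8% lower). The 10 became 6 without the first or second JTE library or the second library of JTE with CTGF, and 5 without the third library of JTE with CTGF. The 4 became 6 without the third JTE library, with Col1a1 and Col1a2 added. Control explants against wt pancreata gave 16 higher and 14 lower, against 57.8% of all genes (28.5% higher and 29.3% lower). The criterion of the study takes an adjusted p up to 0.1 but also asks for a normalised count over 100 and a fold below 0.6 or above 1.6, and by it 6, 6, 10, 2 and 14 collagen genes were called in these comparisons and 3.2%, 8.55%, 12.5%, 1.98% and 12.8% of all genes. The median log2 fold change of the 41 genes in these comparisons was −0.042, −0.23, −0.41, −0.10 and −0.060, while that of all genes was −0.012, 0, −0.032, −0.002 and −0.023. The libraries of the 2 groups did not overlap for 29, 27, 28, 14 and 32 of the 41 genes. This was not counted over all genes, so these numbers are not read as a trait of the family.

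**Figure D2:**
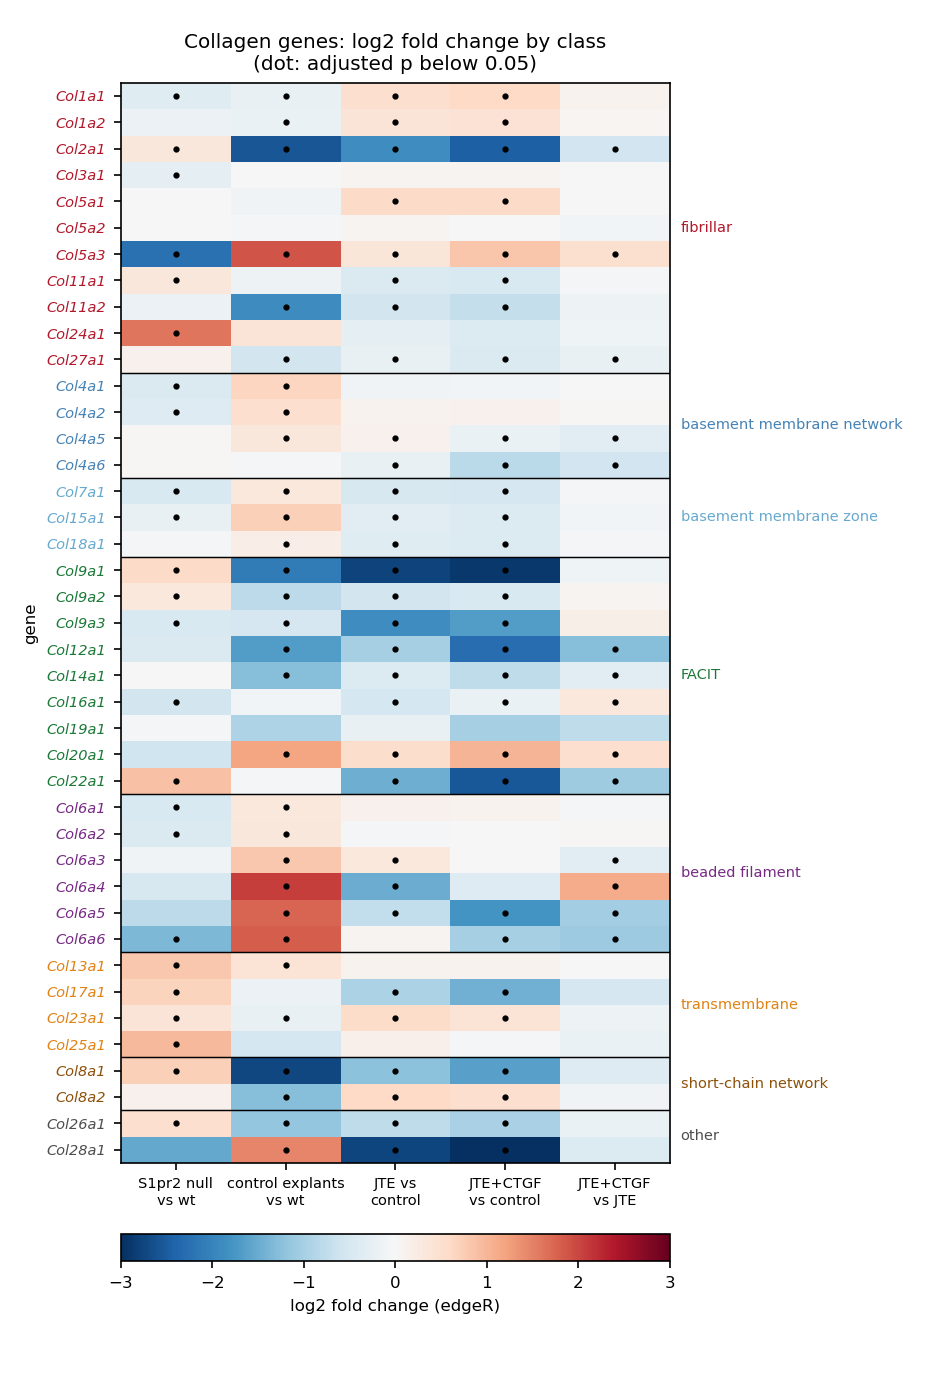
Log2 fold change (colour, −3 to 3) of the 41 tested collagen genes (rows, grouped by class) in 5 comparisons (columns), with a dot where the adjusted p was below 0.05. All type VI rows are red in control explants against wt, and most FACIT rows are blue in the JTE comparisons.

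Among the fibrillar collagens, Col1a1 and Col5a3 were lower in the null-labelled libraries and higher with JTE, while Col2a1 and Col11a1 were higher in the former and lower with JTE. Of the 11 genes, 3 were called higher and 3 lower in null-labelled pancreata, beside 12.6 and 13.3% of all genes. With JTE 4 were called higher and 4 lower, beside 25.9 and 26.2% of all genes. Col1a1 had 39044, 41843 and 41221 normalised counts in wt and 35316, 27664 and 31329 in null-labelled libraries. In control explants it had 34057, 34881 and 35011, with JTE 44943, 48644 and 53723 and with JTE and CTGF 52809, 53287 and 51974. Every null-labelled library lay below every wt library and every treated explant above every control explant. The log2 fold change was −0.37 ± 0.073 (SE, adjusted p = 0.00128) in null-labelled pancreata, 0.50 ± 0.073 (SE, adjusted p = 2.31e-05) with JTE and 0.60 ± 0.073 (SE, adjusted p = 2.11e-06) with JTE and CTGF. Col3a1, the chain of type III collagen, had 51457, 50651 and 49910 normalised counts in wt and 44335, 37975 and 42444 in null-labelled libraries. Its counts in control explants, JTE, and JTE with CTGF were 50604, 50082 and 52740, 48292, 52206 and 60767, and 50409, 55990 and 54733, and these groups overlapped. Col3a1 was lower in null-labelled pancreata (−0.28 ± 0.072 SE, adjusted p = 0.00787), and without the second null-labelled library this call was lost (−0.22, adjusted p = 0.0537). Its difference with JTE was 0.072 (95% interval −0.070 to 0.21).

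Among the other chains of interstitial fibrils, Col1a2 was higher with JTE (0.38 ± 0.073 SE, adjusted p = 0.000321) and with JTE and CTGF (0.43 ± 0.073 SE, adjusted p = 7.35e-05). Its difference in null-labelled pancreata, −0.17 (95% interval −0.31 to −0.022), did not pass the test (adjusted p = 0.109). Col5a1, a chain of type V collagen that is built into type I fibrils, behaved likewise, with 0.57 ± 0.078 (SE, adjusted p = 1.16e-05) for JTE and 0.58 ± 0.078 (SE, adjusted p = 6.41e-06) for JTE with CTGF, and it differed by −0.009 (95% interval −0.16 to 0.14) in null-labelled pancreata. Col5a2, its partner, passed the test in none of the 5 comparisons, and its log2 fold changes lay between −0.088 and 0.077. In control explants against wt, Col1a1 (−0.23 ± 0.073 SE, adjusted p = 0.0118) and Col1a2 (−0.20 ± 0.073 SE, adjusted p = 0.0234) were lower. The Col1a2 call was lost without the second wt library (−0.19, adjusted p = 0.0601) and without the first control library (−0.19, adjusted p = 0.0681).

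Col5a3, the third and scarcest type V chain, showed the largest fall of any tested collagen gene in the null-labelled pancreata. Its normalised counts were 242, 323 and 256 in wt and 67.7, 53.6 and 53 in null-labelled libraries, without overlap. In explants they were 923, 1123 and 980 in control medium, 1066, 1428 and 1377 with JTE and 1948, 1754 and 1700 with JTE and CTGF. The level thus stepped up from fresh to cultured samples and again where CTGF was added. The log2 fold change was −2.24 ± 0.171 (SE, adjusted p = 1.6e-07) in null-labelled pancreata and 1.88 ± 0.121 (SE, adjusted p = 1.22e-09) in control explants against wt. It was 0.36 ± 0.107 (SE, adjusted p = 0.0101) with JTE, a call lost without the second JTE library (0.28, adjusted p = 0.0558), and 0.48 ± 0.105 (SE, adjusted p = 0.00239) for CTGF added to JTE. Against control explants, JTE with CTGF gave 0.84 ± 0.107 (SE, adjusted p = 3.69e-06).

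Col2a1, Col11a1 and Col11a2 encode the fibrillar chains best known from cartilage. Col2a1 had 1783, 1668 and 1933 normalised counts in wt and 2146, 2375 and 2306 in null-labelled libraries. In explants it had 287, 262 and 358 in control medium, 76.2, 89.9 and 80.9 with JTE and 60.6, 58.4 and 47.4 with JTE and CTGF. No library of one group reached into the next group of this series. The log2 fold change was 0.34 ± 0.077 (SE, adjusted p = 0.00361) in null-labelled pancreata, −2.57 ± 0.09 (SE, adjusted p = 6.36e-13) in culture, −1.88 ± 0.124 (SE, adjusted p = 3.58e-09) with JTE and −2.44 ± 0.138 (SE, adjusted p = 3.67e-10) with JTE and CTGF. Col11a1 was higher in null-labelled pancreata (0.33 ± 0.064 SE, adjusted p = 0.00104) and lower with JTE (−0.44 ± 0.069 SE, adjusted p = 5.01e-05) and with JTE and CTGF (−0.47 ± 0.07 SE, adjusted p = 2.15e-05). Col11a2 was lower in control explants than in wt (−1.89 ± 0.107 SE, adjusted p = 2.46e-10), and lower again with JTE (−0.56 ± 0.122 SE, adjusted p = 0.00093) and with JTE and CTGF (−0.72 ± 0.126 SE, adjusted p = 0.000107).

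Of 6 further cartilage markers, Acan (aggrecan) and Hapln1 (its link protein) were expressed, with means of 792 and 114 normalised counts in wt and 209 and 12.1 with JTE. The cartilage matrix genes Matn1, Matn3 and Snorc had at most 4, 6 and 1 reads in any library and Cnmd at most 10. The summed count of the list was 865 to 1000 in wt, 1020 to 1099 in null-labelled pancreata, 252 to 275 in control explants, 219 to 232 with JTE and 171 to 202 with JTE and CTGF. Hapln1 was called in null-labelled pancreata (0.56 ± 0.194) and with JTE (−2.21 ± 0.309), and Acan differed by 0.088 (95% interval −0.10 to 0.28) with JTE. Whether cartilage cells had a part in the counts of Col2a1, Col9 and Col11 was not tested.

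The remaining fibrillar genes, Col24a1 and Col27a1, have shorter helices with a longest run of 216 and 217 triplets. Col24a1 had 52.2, 37.4 and 35.7 normalised counts in wt and 119, 143 and 123 in null-labelled libraries. It had 52, 43.2 and 69.8 in control explants, 29.6, 34.7 and 68.8 with JTE and 43.4, 49.2 and 30.8 with JTE and CTGF. It was the collagen gene with the largest rise in null-labelled pancreata (1.61 ± 0.251 SE, adjusted p = 0.000197), and the explant groups overlapped. Col27a1 was lower in control explants than in wt (−0.55 ± 0.067 SE, adjusted p = 2.14e-06), with JTE (−0.22 ± 0.068 SE, adjusted p = 0.0116) and with JTE and CTGF (−0.44 ± 0.069 SE, adjusted p = 2.95e-05). Its call with JTE was lost without the third JTE library (−0.16, adjusted p = 0.0577). CTGF added to JTE gave −0.22 ± 0.069 (SE, adjusted p = 0.0209), a call lost in 4 of 15 fits that each left out 1 library. These left out the first or second JTE library (adjusted p = 0.109 and 0.0526) or the second or the third library of JTE with CTGF (0.0834 and 0.0501). A fit of only the compared libraries also lost this call (adjusted p = 0.052).

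The chains of the basement membrane network are encoded by gene pairs that lie head to head on opposite strands. In the gene coordinates of the deposited count table the starts of Col4a1 and Col4a2 overlap by 22 bases on chromosome 8. Those of Col4a4 and Col4a3 lie 72 bases apart on chromosome 1, and those of Col4a6 and Col4a5 lie 1309 bases apart on chromosome X. Col4a1 and Col4a2 stood at 106 ± 3.94 and 56.4 ± 1.72 FPKM in wt, Col4a5 and Col4a6 at 11.6 ± 0.411 and 3.84 ± 0.238, and the 2 untested chains near 0.

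Col4a1, part of the trimer found in nearly all basement membranes, had 8852, 9434 and 8849 normalised counts in wt and 6655, 6487 and 6951 in null-labelled libraries. Its explant counts were 13065, 14370 and 14739 in control medium, 12973, 12889 and 13513 with JTE and 13477, 13991 and 12233 with JTE and CTGF. Its partner Col4a2 had 4574, 4845 and 4630 in wt and 3584, 3426 and 3682 in null-labelled libraries. For both, the null-labelled libraries lay below the wt libraries. In explants Col4a2 had 6207, 6687 and 7180 in control medium, 7198, 6940 and 7416 with JTE and 7622, 7531 and 6766 with JTE and CTGF. Every explant library of both genes lay above every fresh library, and the explant groups overlapped. Both fell in null-labelled pancreata, with log2 fold changes of −0.43 ± 0.058 (SE, adjusted p = 5.12e-05) and −0.39 ± 0.06 (SE, adjusted p = 0.000168). Both rose in culture, by 0.64 ± 0.058 (SE, adjusted p = 8.88e-08) and 0.52 ± 0.06 (SE, adjusted p = 1.4e-06). With JTE they differed from control explants by −0.099 (95% interval −0.21 to 0.015) and 0.10 (95% interval −0.014 to 0.22) without passing the test.

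Col4a5 and Col4a6, chains of a more restricted network, were not called in null-labelled pancreata, where they differed by 0.037 (95% interval −0.068 to 0.14) and 0.046 (95% interval −0.10 to 0.19). Col4a5 was higher in control explants than in wt (0.34 ± 0.054 SE, adjusted p = 4.05e-05) and lower where CTGF was added to JTE (−0.34 ± 0.054 SE, adjusted p = 0.000185). Col4a6 was lower with JTE and CTGF than in control explants (−0.81 ± 0.083 SE, adjusted p = 3.62e-07) and than with JTE alone (−0.57 ± 0.084 SE, adjusted p = 8.82e-05), with means of 376.8 ± 8.52, 320 ± 23.4 and 215.4 ± 21.8 normalised counts (SD, n = 3) in the explant groups. Col4a5 with JTE and CTGF was also below control explants (−0.20 ± 0.054 SE, adjusted p = 0.00353). For JTE alone the calls were weak. Col4a5 gave 0.13 ± 0.053 (SE, adjusted p = 0.0473) and lost its call in 10 of 15 fits that left out 1 library and in the 5 other alternatives, with 0.082 and an adjusted p of 0.225 without the third JTE library. Col4a6 gave −0.23 ± 0.078 (SE, adjusted p = 0.019) and lost its call without the first or the third control library (adjusted p = 0.0535 and 0.0501) or the first or second JTE library (0.084 and 0.0593).

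Of the basement membrane zone collagens, Col18a1 and Col15a1 are multiplexins that carry sugar side chains, and Col7a1 forms anchoring fibrils. All of them were higher in control explants than in wt and lower with JTE than in control explants. The shares of all genes called in these directions were 28.5 and 26.2%. Col18a1 had 8158, 8023 and 7796 normalised counts in wt and 7752, 7896 and 7645 in null-labelled libraries. The explants gave 9032, 8918 and 9487 in control medium, 7051, 6835 and 7299 with JTE and 6939, 7088 and 6701 with JTE and CTGF. The control explants stood above all other libraries. Col15a1 had 1296, 1425 and 1323 in wt and 1249, 1081 and 1159 in null-labelled libraries. It had 2166, 2328 and 2149 in control explants, 1717, 1880 and 1684 with JTE and 1706, 1716 and 1599 with JTE and CTGF.

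Col18a1 changed by 0.19 ± 0.045 (SE, adjusted p = 0.00141) in culture, −0.37 ± 0.045 (SE, adjusted p = 3.42e-06) with JTE and −0.41 ± 0.045 (SE, adjusted p = 8.71e-07) with JTE and CTGF, and by −0.042 (95% interval −0.13 to 0.047) in null-labelled pancreata, which was not called. For Col15a1 the changes were 0.72 ± 0.062 (SE, adjusted p = 4.21e-08) in culture, −0.33 ± 0.061 (SE, adjusted p = 0.000238) with JTE and −0.40 ± 0.062 (SE, adjusted p = 2.59e-05) with JTE and CTGF. Its fall in null-labelled pancreata (−0.21 ± 0.063 SE, adjusted p = 0.0187) was lost without the second wt library (adjusted p = 0.0998) or the second or the third null-labelled library (0.108 and 0.0565). Col7a1 fell in null-labelled pancreata (−0.46 ± 0.095 SE, adjusted p = 0.00199), with JTE (−0.48 ± 0.094 SE, adjusted p = 0.000408) and with JTE and CTGF (−0.51 ± 0.095 SE, adjusted p = 0.000192). Its rise in culture (0.31 ± 0.093 SE, adjusted p = 0.00843) rested on the second control library, without which it was 0.18 (adjusted p = 0.0762).

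Type VI collagen is assembled from Col6a1, Col6a2 and 1 longer chain, which can be Col6a3 or one of the related chains Col6a4, Col6a5 and Col6a6. All 6 genes were higher in control explants than in wt, where 28.5% of all genes were called higher. Col6a1 had 6377, 6924 and 6657 normalised counts in wt and 5072, 4422 and 4933 in null-labelled libraries. It had 7811, 8053 and 9057 in control explants, 8318, 9118 and 10002 with JTE and 9651, 8823 and 8360 with JTE and CTGF, and the explant groups overlapped. Col6a2 had 7424, 8427 and 8002 in wt and 6185, 5391 and 6122 in null-labelled libraries. Its explant counts were 9534, 9749 and 10770 in control medium, 8821, 9785 and 10895 with JTE and 10550, 10106 and 9775 with JTE and CTGF. Both fell in null-labelled pancreata (Col6a1 −0.47 ± 0.077 (SE, adjusted p = 0.000306), Col6a2 −0.43 ± 0.077 (SE, adjusted p = 0.000569)) and rose in culture (0.32 ± 0.077 (SE, adjusted p = 0.00176) and 0.33 ± 0.076 (SE, adjusted p = 0.00125)). With JTE they differed by 0.14 (95% interval −0.011 to 0.29) and −0.027 (95% interval −0.18 to 0.12).

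Of the longer chains, Col6a3 was higher in culture (0.81 ± 0.106 SE, adjusted p = 5.25e-06) and differed by −0.11 (95% interval −0.32 to 0.099) in null-labelled pancreata. Its rise with JTE (0.32 ± 0.104 SE, adjusted p = 0.0163) was lost without the third JTE library (0.20, adjusted p = 0.0939) and without the second control library (adjusted p = 0.0515). Its fall where CTGF was added (−0.31 ± 0.104 SE, adjusted p = 0.0347) was −0.15 without the third JTE library (adjusted p = 0.258). That call was also lost without the second JTE library (0.0837) and the second or the third library of JTE with CTGF (0.0996 and 0.176). A fit of only the compared libraries lost it too (0.129).

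Col6a6 had 488, 627 and 497 normalised counts in wt and 158, 172 and 294 in null-labelled libraries. In explants it had 1853, 2217 and 1638 in control medium, 2186, 2130 and 1770 with JTE and 970, 979 and 908 with JTE and CTGF. The control and JTE libraries overlapped, and all 3 libraries with CTGF lay below them. Col6a6 changed by −1.36 ± 0.18 (SE, adjusted p = 4.37e-05) in null-labelled pancreata and by 1.82 ± 0.155 (SE, adjusted p = 3.56e-08) in culture. CTGF added to JTE gave −1.09 ± 0.15 (SE, adjusted p = 4.56e-05), and JTE with CTGF against control explants −0.998 ± 0.15 (SE, adjusted p = 2.18e-05), while JTE alone gave 0.091 (95% interval −0.19 to 0.37). Col6a4, at lower counts, had 31.5, 30.6 and 22.5 in wt and 10.8, 24 and 25.2 in null-labelled libraries. Its explant counts were 119, 104 and 135 in control medium, 37, 31.7 and 56.7 with JTE and 70.9, 92.7 and 111 with JTE and CTGF. It rose in culture (2.07 ± 0.252 SE, adjusted p = 2.31e-06) and fell with JTE (−1.50 ± 0.24 SE, adjusted p = 6.04e-05). Col6a5 did not exceed a group mean of 61.71 ± 25 normalised counts.

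The FACIT collagens gave 7 genes lower and 1 higher of 9 with JTE, beside 26.2 and 25.9% of all genes. With JTE and CTGF 7 were likewise lower and 1 higher, beside 33.0 and 28.1% of all genes. In null-labelled pancreata 3 were higher and 2 lower, beside 12.6 and 13.3% of all genes. Col9a1, Col9a2 and Col9a3 encode the chains of type IX collagen, which coats type II fibrils. Col9a1 had 499, 446 and 430 normalised counts in wt and 719, 735 and 601 in null-labelled libraries. Its explant counts were 108, 82.4 and 132 in control medium, 9.5, 20.4 and 16.7 with JTE and 17.2, 17.2 and 8.3 with JTE and CTGF. Its counts were highest in null-labelled libraries and lowest in the treated explants. Col9a2 had 1745, 1684 and 1636 in wt and 2273, 2162 and 1906 in null-labelled libraries. It had 1046, 833 and 1056 in control explants, 662, 688 and 651 with JTE and 656, 745 and 721 with JTE and CTGF. Col9a3 had 1042, 1093 and 1058 in wt and 818, 726 and 778 in null-labelled libraries, so that it went down where the other type IX chains went up. Its explant counts were 841, 664 and 730 in control medium, 207, 202 and 205 with JTE and 217, 245 and 235 with JTE and CTGF.

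In null-labelled pancreata the log2 fold change was 0.58 ± 0.122 (SE, adjusted p = 0.00225) for Col9a1, 0.32 ± 0.078 (SE, adjusted p = 0.00581) for Col9a2 and −0.46 ± 0.071 (SE, adjusted p = 0.000177) for Col9a3. With JTE the 3 values were −2.77 ± 0.248 (SE, adjusted p = 1.18e-07), −0.55 ± 0.085 (SE, adjusted p = 4.28e-05) and −1.86 ± 0.083 (SE, adjusted p = 2.52e-11). With JTE and CTGF they were −2.90, −0.47 and −1.68, and in control explants against wt −2.09, −0.79 and −0.52, all called. Of the exon bases of Col9a3, 6.07% overlap Tcfl5 on the opposite strand, and the sources used here do not state whether counting used the strand.

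Col12a1 and Col14a1 are FACIT collagens of fibrils in dense connective tissue. Col12a1 had 1271, 1286 and 1447 normalised counts in wt and 1035, 780 and 1159 in null-labelled libraries. The explants gave 362, 463 and 436 in control medium, 144, 156 and 324 with JTE and 83.5, 96.2 and 79.4 with JTE and CTGF. The third JTE library stood well above the other JTE libraries, yet below every control library. Col12a1 was lower in culture (−1.67 ± 0.189 SE, adjusted p = 1.07e-06), with JTE (−1.001 ± 0.22 SE, adjusted p = 0.00104) and with JTE and CTGF (−2.28 ± 0.261 SE, adjusted p = 1.06e-06). CTGF added to JTE gave −1.28 ± 0.283 (SE, adjusted p = 0.00251), which was −0.76 without the third JTE library (adjusted p = 0.0122). Its difference in null-labelled pancreata, −0.43 (95% interval −0.77 to −0.085), did not pass (adjusted p = 0.083).

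Col14a1 was lower in culture (−1.29 ± 0.104 SE, adjusted p = 1.96e-08), with JTE (−0.41 ± 0.112 SE, adjusted p = 0.00479) and with JTE and CTGF (−0.76 ± 0.116 SE, adjusted p = 2.44e-05), while it differed by −0.010 (95% interval −0.20 to 0.18) in null-labelled pancreata. Its JTE value was −0.26 without the second control library (adjusted p = 0.0414). CTGF added to JTE gave −0.35 ± 0.118 (SE, adjusted p = 0.0344). This call was lost without the first or the third JTE library (0.0807 and 0.116) or the first or the third library of JTE with CTGF (0.142 and 0.144). A fit of only the compared libraries lost it too (0.067).

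Col16a1, a FACIT collagen of many tissues, had 2818, 2856 and 2692 normalised counts in wt and 2101, 1705 and 1949 in null-labelled libraries. In explants it had 2453, 2673 and 2727 in control medium, 1698, 1881 and 1902 with JTE and 2000, 2312 and 2479 with JTE and CTGF. It fell in null-labelled pancreata (−0.54 ± 0.08 SE, adjusted p = 0.000128) and with JTE (−0.52 ± 0.081 SE, adjusted p = 4.55e-05), and it was higher where CTGF was added to JTE (0.31 ± 0.081 SE, adjusted p = 0.00834). The last call was lost without the third library of JTE with CTGF (adjusted p = 0.0601). JTE with CTGF against control explants gave −0.21 ± 0.08 (SE, adjusted p = 0.032), which was −0.13 without the first library of JTE with CTGF (adjusted p = 0.182). That call was also lost without the second library of JTE with CTGF (0.0504), the second or the third control library (0.0817 and 0.0976) or the third JTE library (0.0675). A fit of only the compared libraries lost it too (0.0719). Col20a1 was the 1 FACIT gene that rose with JTE (0.52 ± 0.175 SE, adjusted p = 0.0185) and with JTE and CTGF (1.02 ± 0.172 SE, adjusted p = 7.24e-05), at 82.81 ± 21, 119.4 ± 2.88 and 168.3 ± 19.3 normalised counts in the explant groups. The JTE call was lost without the first or the third control library (0.0844 and 0.0662). CTGF added to JTE gave 0.50 ± 0.165 (SE, adjusted p = 0.0312), and this call was lost without the first or second library of either group, with adjusted p-values from 0.0601 to 0.104. Col19a1 had at most 14 reads in any library and was not called, and Col22a1 stayed under a group mean of 100.

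All 4 transmembrane collagens were called higher in null-labelled pancreata, beside 12.6% of all genes. The Col17a1 call was lost with DESeq2 and without any one of the wt libraries or the second or the third null-labelled library. Col23a1 had 1419, 1187 and 1144 normalised counts in wt and 1791, 1560 and 1588 in null-labelled libraries. Its explant counts were 1042, 999 and 1161 in control medium, 1569, 1499 and 1612 with JTE and 1242, 1531 and 1458 with JTE and CTGF. Col13a1, known from the neuromuscular junction, had 237, 234 and 251 in wt and 404, 365 and 496 in null-labelled libraries. It had 334, 336 and 290 in control explants, 376, 317 and 339 with JTE and 320, 344 and 368 with JTE and CTGF, and these groups overlapped. The rise in null-labelled pancreata was 0.81 ± 0.104 (SE, adjusted p = 3.23e-05) for Col13a1, 0.40 ± 0.087 (SE, adjusted p = 0.00306) for Col23a1 and 0.96 ± 0.219 (SE, adjusted p = 0.00378) for Col25a1. Col17a1, a hemidesmosome component of epithelia, stayed under a group mean of 100 with 33.6 ± 3.38 in wt and 53.1 ± 7.43 in null-labelled libraries.

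Col23a1 also rose with JTE (0.55 ± 0.089 SE, adjusted p = 6.96e-05) and with JTE and CTGF (0.40 ± 0.09 SE, adjusted p = 0.000946), which made it the 1 collagen gene called higher in both the null-labelled and the JTE comparison. Col13a1 rose in culture (0.41 ± 0.108 SE, adjusted p = 0.00348). Col23a1 was called lower in culture (−0.23 ± 0.089 SE, adjusted p = 0.0373), but this value was −0.13 without the first wt library (adjusted p = 0.24). The call was also lost without the first or second control library (0.0949 and 0.139) or the third JTE library (0.0531). With RLE scaling factors or only the compared libraries fitted it was lost too (0.0542 and 0.0567).

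The short-chain network collagens Col8a1 and Col8a2 form the lattice of some basement membranes and of vessel walls. Col8a1 had 383, 318 and 355 normalised counts in wt and 570, 599 and 575 in null-labelled libraries. The explants gave 78.6, 54.3 and 25 in control medium, 23.3, 22.5 and 21.4 with JTE and 1.1, 27.5 and 22.5 with JTE and CTGF, so that every explant library lay far below the fresh ones. Col8a2 had 731, 674 and 683 in wt and 803, 702 and 771 in null-labelled libraries. It had 299, 275 and 293 in control explants, 386, 425 and 507 with JTE and 375, 424 and 431 with JTE and CTGF. Both were lower in culture, with −2.74 ± 0.269 (SE, adjusted p = 1.98e-07) for Col8a1 and −1.27 ± 0.09 (SE, adjusted p = 3.68e-09) for Col8a2. Col8a1 fell further with JTE (−1.23 ± 0.406 SE, adjusted p = 0.0174) at mean counts under 100, a call lost with DESeq2 and without the first control library. Col8a2 rose with JTE (0.61 ± 0.093 SE, adjusted p = 3.94e-05) and with JTE and CTGF (0.50 ± 0.095 SE, adjusted p = 0.000212). Col8a1 rose in null-labelled pancreata (0.72 ± 0.205 SE, adjusted p = 0.015), although the call was lost with DESeq2 (adjusted p = 0.344) and without the second or the third wt library (0.074 and 0.0564) or the second null-labelled library (0.0607).

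Col26a1, a short secreted collagen first described in reproductive organs, had 1627, 1316 and 1398 normalised counts in wt and 2138, 1965 and 2072 in null-labelled libraries. In explants it had 563, 643 and 745 in control medium, 360, 374 and 416 with JTE and 335, 329 and 339 with JTE and CTGF. None of the 5 groups overlapped another. It rose in null-labelled pancreata (0.51 ± 0.083 SE, adjusted p = 0.000296) and fell in culture (−1.15 ± 0.089 SE, adjusted p = 1.05e-08), with JTE (−0.76 ± 0.097 SE, adjusted p = 5.83e-06) and with JTE and CTGF (−0.96 ± 0.1 SE, adjusted p = 3.99e-07). Col28a1, with a von Willebrand factor type A domain, stayed at or below 25.17 ± 2.53 normalised counts in every group.

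**Figure D3:**
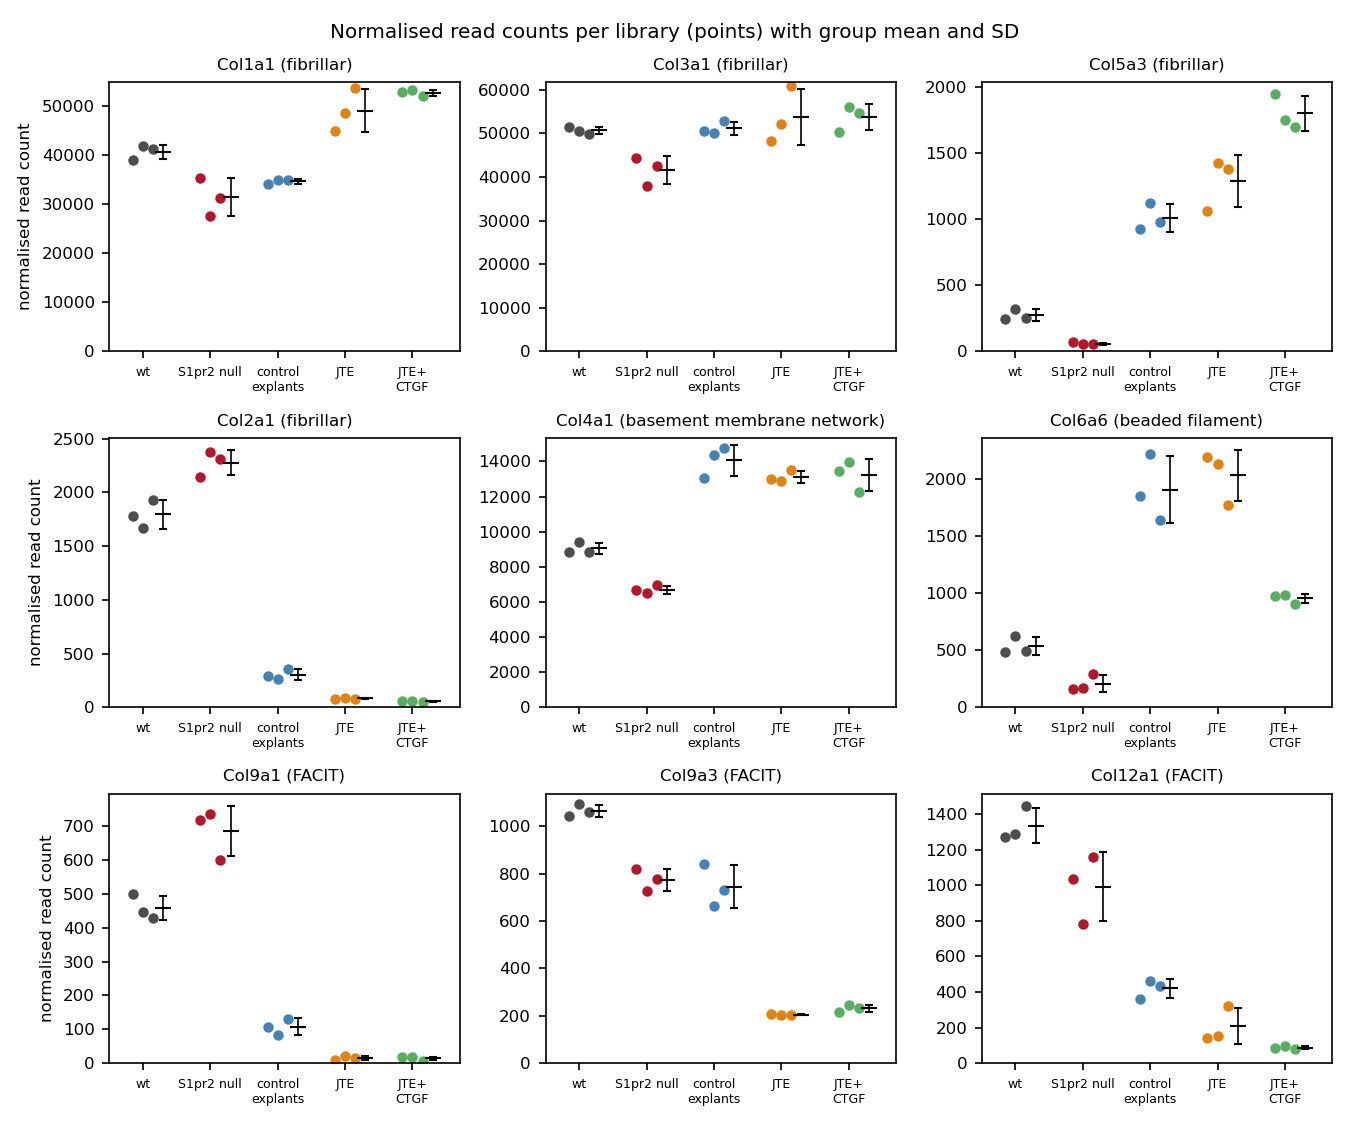
Normalised read count (y axis, linear from 0) of 9 collagen genes in each library (points) of the 5 groups (x axis), with the group mean (dash) and SD (bar, n = 3). Col2a1, Col9a1 and Col9a3 step down in the JTE groups while Col1a1 and Col5a3 stand highest there, and Col6a6 is lower where CTGF was added than with JTE alone.

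The summed FPKM of all 44 genes was 2076 ± 27.9 (SD, n = 3) in wt, 1772 ± 120 in null-labelled pancreata, 2062 ± 61.7 in control explants, 2307 ± 205 with JTE and 2340 ± 43.6 with JTE and CTGF. The null-labelled libraries lay below all wt libraries (log2 ratio −0.23, exact permutation p = 0.1, two-sided), and 0.1 is the smallest p that 3 against 3 libraries allow. JTE and control explants overlapped in the total (log2 ratio 0.16, exact permutation p = 0.2), and without the third JTE library the ratio was 0.091. The fibrillar sum was 1371 ± 15.2 in wt, 1154 ± 97.9 in null-labelled pancreata, 1239 ± 24.9 in control explants, 1528 ± 166 with JTE and 1581 ± 30.7 with JTE and CTGF.

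The type IV sum was 177.7 ± 5.04 FPKM in wt, 137.2 ± 4.26 in null-labelled pancreata and 263.5 ± 15.3 in control explants. The type VI sum had the same order, with 218.5 ± 11.1, 160.5 ± 11.5 and 295.6 ± 17. The FACIT sum was 132.5 ± 2.58 in wt and 128.9 ± 5.96 in null-labelled pancreata, which overlapped. It was 85.11 ± 2.76 in control explants, 52.52 ± 1.57 with JTE and 58.23 ± 4.35 with JTE and CTGF, without overlap between control and treated explants (exact permutation p = 0.1 for each, two-sided). The transmembrane sum was 22.63 ± 2.18 in wt and 32.15 ± 1.98 in null-labelled pancreata, and 21.22 ± 0.73 in control explants and 28.33 ± 1.3 with JTE. Between the last 2 groups it mostly followed Col23a1, at 14.8 ± 1.17 and 21.7 ± 0.792 FPKM. Col13a1 stood at 5.54 and 5.95 there, Col25a1 at 0.442 and 0.492 and Col17a1 at 0.41 and 0.208.

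**Figure D4:**
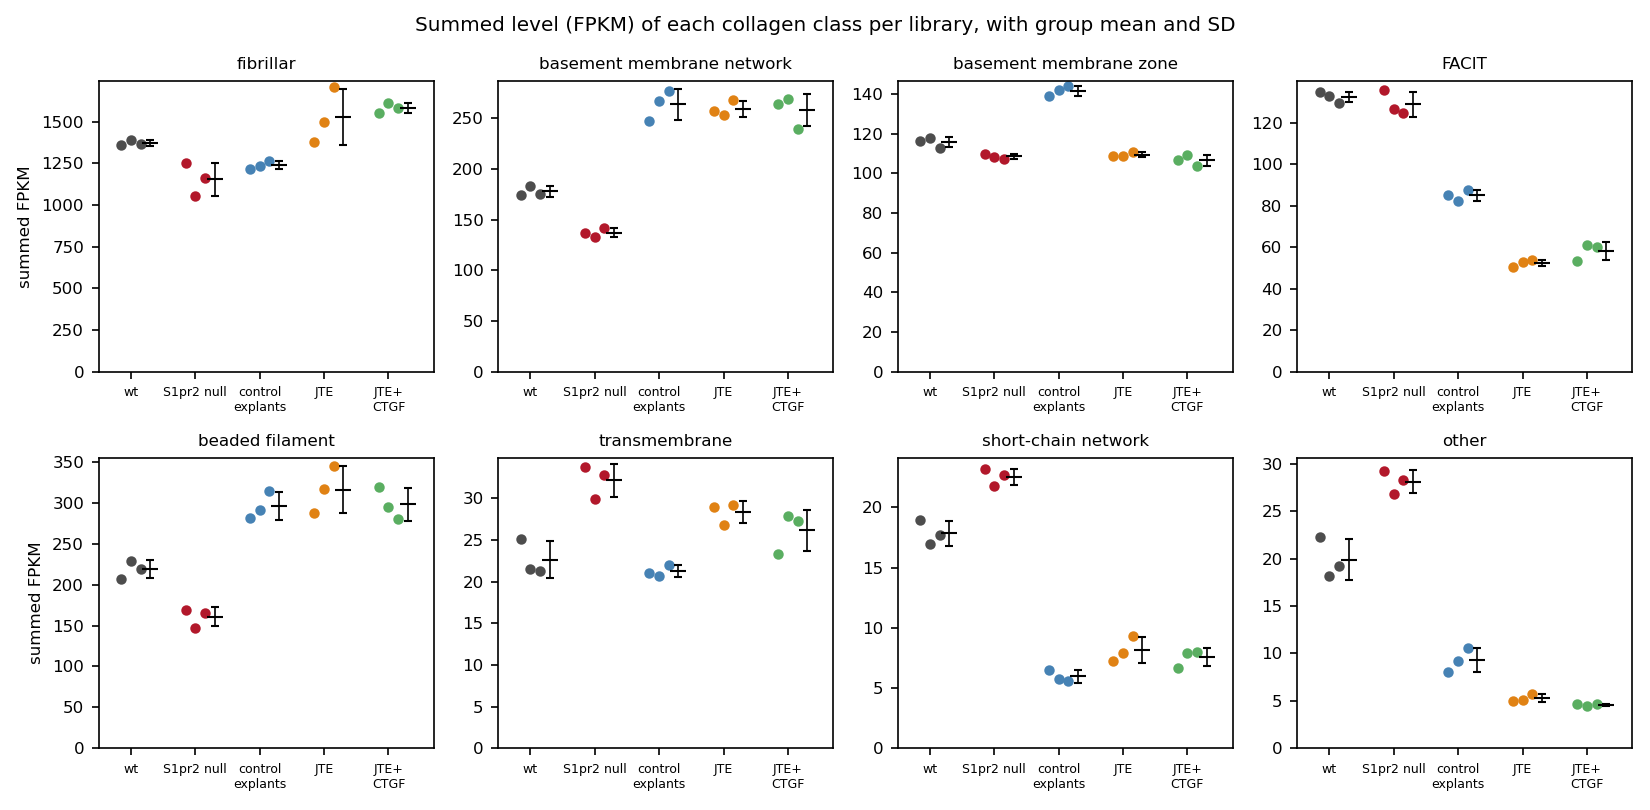
Summed FPKM (y axis, linear from 0) of the genes of each collagen class in each library (points) of the 5 groups (x axis), with group mean (dash) and SD (bar, n = 3). The type IV and type VI sums are highest in the explant groups and the FACIT and short-chain sums in the fresh pancreata.

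Because chains of 1 trimer must be supplied together, the log2 ratio of partner chains was compared between groups. These differences do not depend on the length used. Col1a1 over Col1a2, which share 1 trimer, was 1.24 ± 0.046 (SD, n = 3) in wt, 1.03 ± 0.052 in null-labelled pancreata, 1.22 ± 0.003 in control explants, 1.34 ± 0.055 with JTE and 1.39 ± 0.045 with JTE and CTGF. The ratio was thus lower in null-labelled pancreata by more than the spread. Col4a1 over Col4a2 was 1.03 ± 0.033 in control explants, 0.83 ± 0.022 with JTE and 0.81 ± 0.036 with JTE and CTGF, and every control library lay above every treated library. Col6a1 over Col6a2 ran from 0.63 ± 0.015 in null-labelled pancreata to 0.82 ± 0.019 with JTE.

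Col5a1 over Col5a2 was 0.64 ± 0.056 in wt, 0.65 ± 0.038 in null-labelled pancreata and 0.59 ± 0.061 in control explants, and 1.09 ± 0.093 with JTE and 1.19 ± 0.039 with JTE and CTGF. Col4a5 over Col4a6 was 1.597 ± 0.065 in wt, 1.59 ± 0.073 in null-labelled pancreata, 1.963 ± 0.057 in control explants, 2.33 ± 0.068 with JTE and 2.57 ± 0.188 with JTE and CTGF. Col6a2 over Col6a3 was 2.33 ± 0.04 in wt, 2.01 ± 0.056 in null-labelled pancreata, 1.85 ± 0.066 in control explants, 1.52 ± 0.107 with JTE and 1.87 ± 0.147 with JTE and CTGF. These ratios were not tested and are given with their spread.

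The genetic and the chemical comparison address the same receptor and share no library. The first was made in fresh pancreata and the second in dorsal buds cultured for 2 days. In the difference between them, genotype against antagonist cannot be told apart from stage, part of the organ and culture. Of the 41 collagen genes 15 were called in both, and 10 of these went in opposite directions. Of all genes, 25.8 and 52.2% were called in the 2 comparisons. Calls in both, and opposite calls, were not counted over all genes. Whether 10 of 15 is particular to collagens was therefore not tested. With DESeq2 13 were called in both and 8 were opposite, without Col8a1 and Col17a1, and leaving out 1 library gave 8 to 12 opposite genes. Col1a1 and Col5a3 were lower in null-labelled pancreata and higher with JTE. Col2a1, Col8a1, Col9a1, Col9a2, Col11a1, Col17a1, Col22a1 and Col26a1 were higher in null-labelled pancreata and lower with JTE. Col7a1, Col9a3, Col15a1 and Col16a1 were lower in both and Col23a1 was higher in both. The difference between the responses was itself tested as an interaction, the JTE response minus the null-labelled response, which called 13 collagen genes higher and 17 lower, against 42.9% of all genes tested (21.5% in each direction). All 10 genes with opposite directions passed that test. They were picked by opposite calls from the same fit, and the interaction is the difference of those 2 responses. Passing was thus nearly fixed in advance and is no further support.

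The largest interaction values above a mean count of 100 were −3.35 ± 0.277 (SE, adjusted p = 1.25e-07) for Col9a1, 2.60 ± 0.203 (SE, adjusted p = 6.83e-08) for Col5a3, −2.22 ± 0.147 (SE, adjusted p = 1.02e-08) for Col2a1, −1.95 ± 0.453 (SE, adjusted p = 0.00232) for Col8a1 and −1.90 ± 0.374 (SE, adjusted p = 0.000632) for Col24a1. Col9a3, lower in both comparisons, still differed between them (−1.40 ± 0.109 SE, adjusted p = 6.57e-08). The interaction was also called for Col6a6 (1.45 ± 0.231 SE, adjusted p = 9.76e-05) and Col26a1 (−1.27 ± 0.128 SE, adjusted p = 9.89e-07). For Col7a1, Col15a1, Col16a1 and Col23a1 the interaction did not pass, with −0.021 (95% interval −0.28 to 0.24), −0.12 (95% interval −0.29 to 0.054), 0.021 (95% interval −0.20 to 0.24) and 0.15 (95% interval −0.093 to 0.40). The basement membrane chains Col4a1 and Col4a2 gave 0.33 ± 0.082 (SE, adjusted p = 0.00355) and 0.50 ± 0.085 (SE, adjusted p = 0.000183). Fibrillar Col1a1, Col1a2, Col3a1 and Col5a1 gave 0.88, 0.55, 0.36 and 0.58, all called.

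Among the remaining called interactions above a mean count of 100, Col6a1, Col6a2, Col8a2 and Col20a1 gave 0.61, 0.40, 0.48 and 1.12, while Col9a2, Col11a1, Col13a1, Col18a1 and Col27a1 gave −0.88, −0.77, −0.71, −0.33 and −0.34. The calls for Col4a6 (−0.28), Col6a3 (0.43), Col6a4 (−1.02), Col11a2 (−0.39) and Col14a1 (−0.41) were lost in 11, 7, 10, 11 and 7 of 15 fits that left out 1 library. Their highest adjusted p-values were 0.117, 0.0715, 0.165, 0.179 and 0.128. Col11a2 was −0.23 without the first control library and Col14a1 −0.25 without the second.

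**Figure D5:**
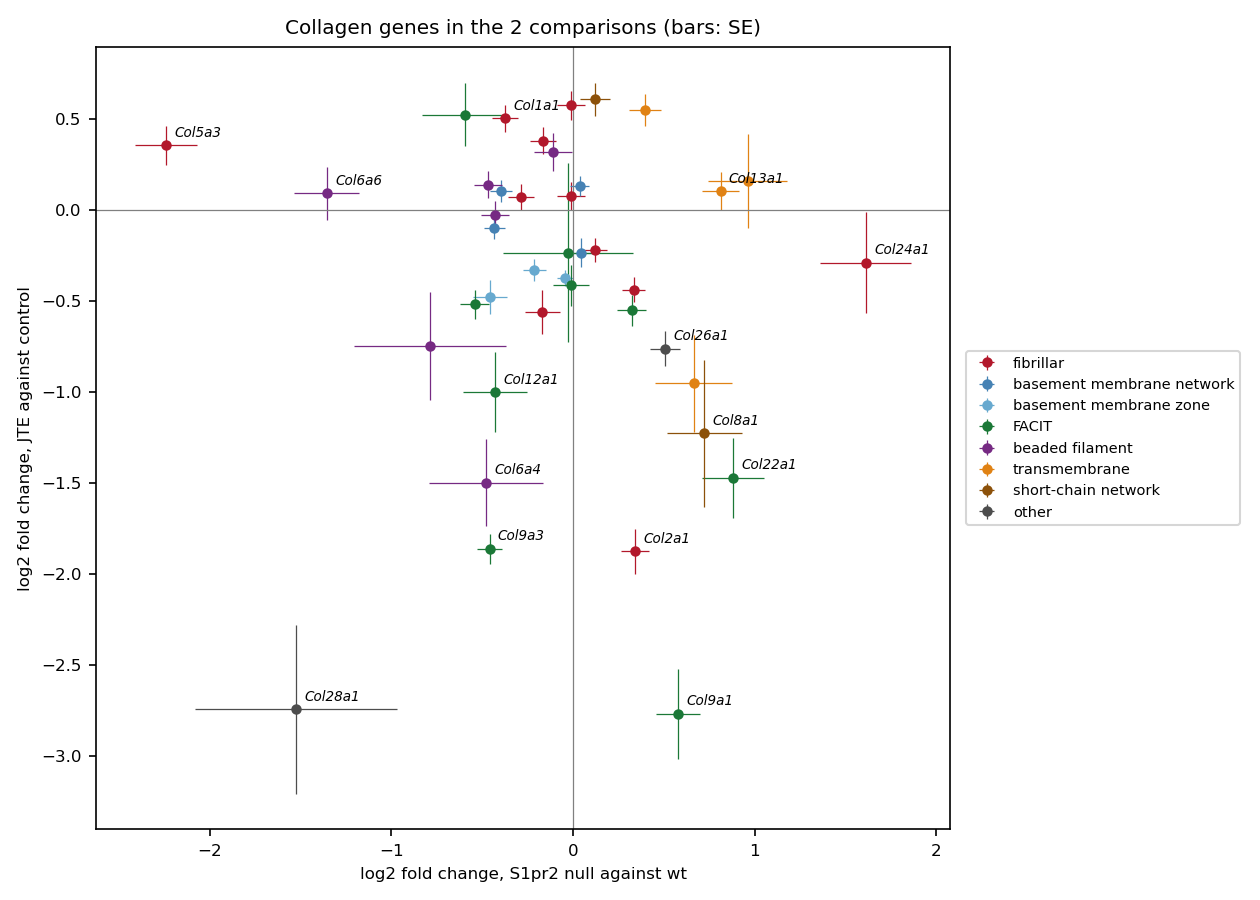
Log2 fold change in null-labelled against wt pancreata (x axis) and in JTE against control explants (y axis) for the 41 tested collagen genes (points, coloured by class, bars are SE). Genes at the lower right, such as Col2a1 and Col9a1, were higher in null-labelled pancreata and lower with JTE, and Col5a3 lies at the upper left.

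Genes that make and modify collagen were read beside the family, in lists chosen for their known function. The helix assembly list holds 18 genes of hydroxylases, glycosyltransferases and chaperones of the endoplasmic reticulum. In null-labelled pancreata 2 were called higher and 4 lower (median −0.012 for all genes and 0.026 for the list), and with JTE 9 higher and 2 lower (median 0.18). With JTE and CTGF 10 were higher and 1 lower than in control explants (median 0.27). The calls in these 3 comparisons, 6, 11 and 11 of 18, stand beside 25.8, 52.2 and 61.1% of all genes called. The prolyl 4-hydroxylase subunit P4ha2 was lower in null-labelled pancreata (−0.44 ± 0.093 SE, adjusted p = 0.00234) and higher with JTE (0.94 ± 0.091 SE, adjusted p = 2.93e-07), where its counts were 860.8 ± 66.8 against 449.7 ± 60.2 (SD, n = 3). The prolyl 3-hydroxylase P3h2 was higher in null-labelled pancreata (0.74 ± 0.184 SE, adjusted p = 0.00682), and the peptidyl-prolyl isomerase Ppib was lower with JTE (−0.42 ± 0.091 SE, adjusted p = 0.000902). Serpinh1, the collagen chaperone HSP47, differed by 0.072 (95% interval −0.032 to 0.18) in null-labelled pancreata and 0.15 ± 0.053 (SE, adjusted p = 0.0222) with JTE.

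Of the 13 genes that trim and crosslink collagen, 11 were tested, with 4 higher and 2 lower in null-labelled pancreata (median 0.081) and 3 higher and 7 lower with JTE (median −0.32). Of all genes, 25.8 and 52.2% were called in these comparisons. Loxl1, a lysyl oxidase, went up in null-labelled pancreata (0.82 ± 0.108 SE, adjusted p = 4.18e-05) and down with JTE (−0.80 ± 0.108 SE, adjusted p = 9.9e-06), with counts of 1136 ± 139 against 1983 ± 259 in the latter. Adamts2, which removes the amino end of fibrillar procollagen, gave 0.72 ± 0.124 (SE, adjusted p = 0.000452) and −0.54 ± 0.154 (SE, adjusted p = 0.00764). Pcolce, an enhancer of the enzyme that removes the carboxyl end, fell with JTE (−1.12 ± 0.065 SE, adjusted p = 7.36e-10) and was higher where CTGF was added (0.44 ± 0.067 SE, adjusted p = 0.000105). Lox fell in null-labelled pancreata (−0.59 ± 0.102 SE, adjusted p = 0.000438) and rose with JTE (0.28 ± 0.107 SE, adjusted p = 0.037).

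Of 5 proteins that bind fibrils, 4 were lower in null-labelled pancreata and all 5 with JTE, while 3 were higher where CTGF was added to JTE. The shares of all genes called in these directions were 13.3, 26.2 and 13.6%. Dcn (decorin) and Lum (lumican) fell in null-labelled pancreata (−0.69 ± 0.091 (SE, adjusted p = 4e-05) and −0.42 ± 0.091 (SE, adjusted p = 0.00266)). Fmod (fibromodulin) fell with JTE (−2.98 ± 0.246 SE, adjusted p = 4.56e-08), with counts of 15.6 ± 9.08 against 126.9 ± 6.82, and so did Bgn, biglycan (−0.39 ± 0.063 SE, adjusted p = 6e-05). Lum and Bgn were higher with CTGF added (0.50 ± 0.087 (SE, adjusted p = 0.000394) and 0.45 ± 0.063 (SE, adjusted p = 5.28e-05)). Of 10 collagen receptors, 9 were tested and none was called in null-labelled pancreata, where their median was 0.064. With JTE 2 rose and 3 fell, near the 52.2% of all genes called in that comparison. Ddr2, a receptor tyrosine kinase for fibrillar collagens, rose (0.72 ± 0.131 SE, adjusted p = 0.000203), as did the endocytic receptor Mrc2 (0.55 ± 0.094 SE, adjusted p = 0.000115), and the integrin chain Itga2 fell (−0.43 ± 0.131 SE, adjusted p = 0.0106). Itga1 and Ddr2 were lower with CTGF added (−0.70 ± 0.119 (SE, adjusted p = 0.000302) and −0.56 ± 0.131 (SE, adjusted p = 0.00371)).

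Markers of the cell types in the organ moved in the same comparisons. Of all genes, 12.6% were called higher and 13.3% lower in null-labelled pancreata, and 25.9% higher and 26.2% lower with JTE. Of 10 mesenchyme markers, 9 were called higher in null-labelled pancreata, with a summed count of 15200 to 16480 in wt and 20140 to 21290 in null-labelled libraries. It was 18370 to 21160 in control explants, 15030 to 17460 with JTE and 15860 to 16790 with JTE and CTGF. Vim, the largest member of this sum, had means of 13090 in control explants and 9258 with JTE. Of the 10 markers, 1 was called higher with JTE, 2 lower and 7 not at all (median 0.020). In null-labelled pancreata mesenchymal Pdgfra and Tcf21 rose (0.89 ± 0.077 and 0.91 ± 0.131). All 8 epithelium markers were lower in null-labelled pancreata and 4 with JTE. Their summed count was 25120 to 27730 in wt, 17680 to 18590 in null-labelled libraries, 35400 to 40950 in control explants, 25130 to 31700 with JTE and 27940 to 30600 with JTE and CTGF. The type IV collagen sum was lowest in null-labelled libraries. It was 263.5 ± 15.3 FPKM in control explants and 259.3 ± 7.83 with JTE, with overlap. The part of cell composition in the collagen counts was not tested.

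Markers of other cell types were also called lower with JTE, where 26.2% of all genes were called lower and 25.9% higher. The summed count of 7 macrophage markers was 1769 to 1804 in wt, 1602 to 1799 in null-labelled libraries, 3613 to 3939 in control explants, 1147 to 1340 with JTE and 921.6 to 1369 with JTE and CTGF, and all 7 fell with JTE. The 6 mesothelium markers summed to 2479 to 2523 in wt, 2646 to 2790 in null-labelled libraries, 766.5 to 1134 in control explants, 429.5 to 804.5 with JTE and 443.6 to 634.4 with JTE and CTGF. Of these 4 fell with JTE. Of 8 smooth muscle and pericyte markers, 5 fell and 1 rose with JTE, with sums of 4833 to 5397 in control explants and 3842 to 4282 with JTE. Their sums were 3956 to 4326 in wt, 5231 to 5406 in null-labelled libraries and 3536 to 4007 with JTE and CTGF.

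The next counts stand beside the same 26.2% of all genes lower and 25.9% higher with JTE. Of 8 endothelium markers 5 fell with JTE, with sums of 6488 to 7843 in control explants and 5042 to 5699 with JTE. The sums were 6600 to 6785 in wt, 7065 to 7131 in null-labelled libraries and 4820 to 5669 with JTE and CTGF. Of 7 Schwann and neural crest markers 1 rose and 1 fell with JTE, with sums of 2341 to 2378 in control explants and 1835 to 1955 with JTE. They were 2223 to 2391 in wt, 2425 to 2449 in null-labelled libraries and 1449 to 1642 with JTE and CTGF. Whether these cells had a part in the lower Col8a1, Col12a1, Col15a1 and Col18a1 counts with JTE was not tested.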

How the data were processed

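RNA of 15 libraries was sequenced single-end by a strand-specific poly(A) protocol. Per the study's methods, reads were aligned with GSNAP to mm10 and unique reads counted per gene with featureCounts 1.4.6 (version in the submitters' processing notes), and the authors deposited raw read counts. Whether counting used the strand is not given in the sources used here. Groups were taken from the sample labels. Counts were fitted with edgeR 4.0.16 (R 4.3.3) by the quasi-likelihood test, with TMM factors, filterByExpr and 1 coefficient per group over all 15 libraries, and p-values were adjusted by Benjamini-Hochberg over 16245 genes. P-values measure the spread between these pooled samples. Normalised counts, FPKM and partner ratios were computed from the deposited counts, with the gene lengths of the deposited table. Coding sequences and the lengths of the longest coding transcripts came from GENCODE M21 (mm10). Intervals of 95% are normal intervals from the SE. Sums were compared by exact permutation tests. The script was tested on simulated data, where it called 200 of 200 changed genes and 14 unchanged genes of 15725 for JTE against control. Genes named with fold changes were called members with a mean above 100 in either group. Per-library values were given for members chosen by a fixed rule on level and change. The members and lists were chosen with earlier results of these data known. Alternatives were RLE factors, DESeq2 1.42.0, no filter, the compared libraries only, a replicate block, the study's criterion and leaving out each library. Reference proteins were not used here.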

Additional observations from a re-analysis of the deposited data

Results flagged for a closer look

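The JTE response differed from the response in null-labelled pancreata for 8 collagen genes that were called in opposite directions in the 2 comparisons and had a mean count above 100 in at least 1 group (interaction contrast of edgeR's quasi-likelihood test, JTE response minus null-labelled response, on the log2 scale). These genes were picked by opposite calls from the same fit, so that their interaction values are no separate support. The 2 comparisons also differ in stage, part of the organ and culture, which cannot be told apart from genotype against antagonist. Col1a1 (0.876) and Col5a3 (2.595) were lower in null-labelled pancreata and higher with JTE. Col2a1 (−2.217), Col8a1 (−1.952), Col9a1 (−3.347), Col9a2 (−0.875), Col11a1 (−0.772) and Col26a1 (−1.269) were higher in null-labelled pancreata and lower with JTE. For Col8a1 neither the rise in null-labelled pancreata nor the fall with JTE was called with DESeq2, and its mean counts in control and JTE explants were 52.62 and 22.38. Groups of 3 libraries are too small for the test of single outlying samples, which was not run.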

How the results depend on the processing

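Under the criterion of the study (adjusted p up to 0.1, a normalised count over 100 and a fold below 0.6 or above 1.6) the higher and lower collagen genes numbered 4 and 2 in null-labelled pancreata, 0 and 6 with JTE, 2 and 8 with JTE and CTGF, 0 and 2 for CTGF added to JTE, 5 and 9 in culture and 4 and 10 for the interaction (it changes the p limit, the count floor and the fold together). With only the compared libraries fitted, CTGF added to JTE lowered 6 genes, as the calls for Col6a3, Col14a1, Col22a1 and Col27a1 were lost. Leaving out each library gave 10 to 12 higher and 10 to 15 lower in null-labelled pancreata, 7 to 9 and 19 to 21 with JTE, 7 to 8 and 21 to 22 with JTE and CTGF, 3 to 6 and 5 to 10 for CTGF added to JTE, 15 to 16 and 12 to 15 in culture, and 12 to 13 and 13 to 18 for the interaction. The log2 ratio of summed collagen then ran from −0.275 to −0.178, 0.091 to 0.218, 0.163 to 0.206, −0.036 to 0.091 and −0.033 to 0.01 in the first 5 of these. With library totals in place of TMM factors it was 0.138 for JTE with CTGF and −0.152 in culture (0.183 and −0.010 with TMM), by construction of the scaling.

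By the length of the longest coding transcript, a choice made after seeing the data, the wt log2 ratio was 0.208 for Col1a1 over Col1a2, 0.409 for Col3a1 over Col1a1, 0.124 for Col5a1 over Col5a2, 1.374 for Col4a5 over Col4a6, −0.074 for Col6a1 over Col6a2 and 2.925 for Col6a2 over Col6a3, so that Col3a1 over Col1a1 and Col6a1 over Col6a2 changed sign. Leaving out 1 wt library gave ranges of 1.226 to 1.27, −0.076 to −0.015, 0.618 to 0.674, 1.57 to 1.633, 0.652 to 0.684 and 2.306 to 2.344, and 0.901 to 0.914 for Col4a1 over Col4a2.

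Over 30 pairs of same-numbered samples the deviations correlated between −0.319 and 0.481, and 7 pairs correlated best with their own number. For control and JTE explants the values were −0.004, 0.283 and 0.481. The labels give a number only, and these values do not settle whether it marks pairs. With a replicate block 12 were higher and 13 lower in null-labelled pancreata, 8 and 20 with JTE, 7 and 22 with JTE and CTGF, 4 and 10 for CTGF added to JTE, 16 and 15 in culture and 13 and 16 for the interaction. Of 136 named fold changes, 113 stayed called in the 15 fits that left out 1 library and the 5 other refits (RLE factors, DESeq2, no filter, compared libraries, block) and none reversed. The block lost 2, Col4a5 with JTE (0.0583) and the Col4a6 interaction (0.0556), and DESeq2 lost these (0.137 and 0.0596) and Col8a1 in null-labelled pancreata (0.344). Among members not named by fold change for low counts, DESeq2 also lost Col17a1 in null-labelled pancreata and Col6a5 and Col8a1 with JTE.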
